A study of Mus musculus with 6 samples.

Results

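Ephrins and Eph receptors are membrane-bound partners through which touching cells signal to each other. The receptors (Eph) are the largest family of receptor tyrosine kinases. Ephrins of class A are held in the membrane by a lipid anchor and mostly bind EphA receptors, whereas ephrins of class B span the membrane and mostly bind EphB receptors, and both sides of a pair can send a signal into their own cell. In blood vessels, ephrin-B2 is the classical mark of arteries and its receptor EphB4 that of veins, and ephrin-A1 with EphA2 is best known from the vessels of tumors. The 10 genes described here are the ligands *Efna1*, *Efna5*, *Efnb1*, *Efnb2* and *Efnb3* and the receptors *Epha2*, *Epha4*, *Ephb2*, *Ephb3* and *Ephb4*. Every non-control spot of the array whose annotation names one of them was taken, which gave 12 probes, each printed once, of the 55681 probes of the array (10 of 22220 named genes).

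The cells were 2 derivatives of 1G11, a mouse microvascular endothelial cell line (strain C57BL/6NCrLBR). 1G11-mock cells are the control line, and 1G11-SOD3 cells overexpress superoxide dismutase 3 (SOD3), an extracellular enzyme that removes superoxide. Both spent 6 h in conditioned medium of N202.1A cells, a mouse mammary cancer line, so no array shows cells without that medium, and whether 1G11-SOD3 is a single clone is not given in the sources used here. Cy3-labeled material from total RNA of 3 biological replicates per line was read on 6 Agilent SurePrint Mouse G3 arrays (1 color, 1 slide). All values are log2 intensities after background correction and quantile normalization. A difference is 1G11-SOD3 minus 1G11-mock, and a probe was called different at more than 2-fold with an adjusted p under 0.05 in limma over all 55961 probe entries. With 3 arrays per line, the smallest p of an exact permutation test is 0.1 (2-sided).

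Some properties of the arrays bear on every value. On the slide, row 2 held all 1G11-mock arrays and row 1 all 1G11-SOD3 arrays, so cell line and slide row cannot be told apart. The scanner software marked 34.2% to 43.8% of the 59305 non-control spots as well above background, depending on the array. A central block of 6606 non-control spots, called the middle here, read low on the 1G11-mock arrays. This was measured on 128 bright, repeatedly printed probes with copies both there and elsewhere. Their median log2 difference (middle minus elsewhere) was -0.67, -0.87 and -2.42 on 1G11-mock replicates 1, 2 and 3. On the 1G11-SOD3 arrays it was between -0.18 and 0.15. Dimmer probes were not part of this comparison. In the middle 11.9% of the 6435 entries were called higher in 1G11-SOD3 cells and 0.0622% lower, against 0.664% and 1.19% of the 49526 entries outside it. The spots of *Efnb1* and *Ephb3* lie in the middle and are described apart. Differences after a position adjustment are given beside the others. The adjustment takes a smooth surface over rows and columns off each array before quantile normalization, so the baseline also moves. The median log2 difference over all entries outside the middle was -0.06 before and 0.10 after it. The *Sod3* probe, also in the middle, read 13.61, 12.66 and 9.86 on the 1G11-mock arrays and 16.37, 16.29 and 16.27 on the 1G11-SOD3 arrays, a log2 difference of 4.27 (adjusted p = 0.00766) that was 2.65 after position adjustment.

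Whether the cells carried the endothelial label was read from marker genes fixed as a list. *Eng*, *Vwf*, *Esam* (in the middle) and 1 of 2 *Kdr* probes were well above background on all 6 arrays. *Flt1* (in the middle) passed on 2 of 3 arrays of 1G11-mock and 3 of 3 of 1G11-SOD3 cells. *Icam2* passed on 0 and 3, with similar means of 7.87 and 7.94. The only *Cdh5* probe, for VE-cadherin, the defining adhesion molecule of endothelial junctions, was well above background on none. The paper states that staining for VE-cadherin protein was used regularly to check the endothelial origin of 1G11 cells. Whether the *Cdh5* probe reports its RNA was not tested. Probes of *Tek*, *Tie1*, *Robo4* and *Erg* were also well above background on no array. *Pecam1* passed on 2 of 3 arrays of 1G11-mock and on 1 of 3 of 1G11-SOD3 cells, and *Cldn5* on 1 and 0.

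Of the 12 ephrin and Eph probes, 9 were well above background on all 6 arrays, and 8 of the 10 genes had such a probe. They were *Efna1*, *Efna5*, *Efnb1*, *Efnb2*, *Epha2*, *Ephb2*, *Ephb3* and *Ephb4*. The *Epha4* probe passed on 3 of 3 arrays of 1G11-mock but on only 1 of 3 of 1G11-SOD3 cells. The *Efnb3* probe passed on 1 array in all, and the second *Efnb2* probe on none. No spot of the 12 was saturated or marked as an outlier. Outside the middle 1 of the 10 probes was called lower in 1G11-SOD3 cells, namely *Epha4*, and 0 were called higher. Over all entries outside the middle, 1.19% were called lower and 0.664% higher. Among the entries there that were well above background on all arrays of either line, 3.22% were called lower and 1.84% higher. That set leaves out *Efnb3* and the second *Efnb2* probe. The groups did not overlap for 3 of the 10 probes (*Efna5*, *Epha2* and *Epha4*, all lower in 1G11-SOD3 cells), against 19.6% of all entries outside the middle. The differences of the 10 probes had a median of -0.20, beside -0.06 over all entries outside the middle. The 10 include *Efnb3* and the second *Efnb2* probe, both near background. Over probes well above background on all arrays of either line, the medians were -0.46 for the member probes, among which *Epha4* entered through the 1G11-mock arrays alone, and -0.13 for all entries.

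**Figure D1:**
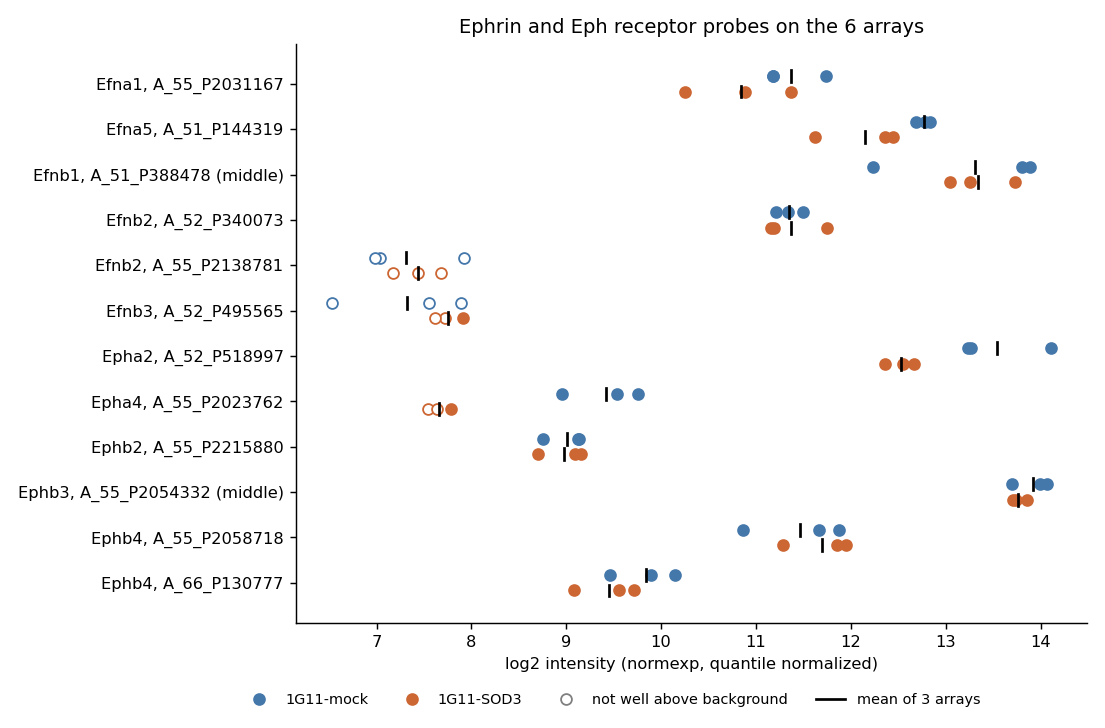
Log2 intensity (x axis) of the 12 ephrin and Eph receptor probes (y axis) on the 3 1G11-mock arrays (blue) and the 3 1G11-SOD3 arrays (orange), open where the spot was not well above background, with a black bar at each mean. The *Epha4* points of the 2 lines stand apart by more than the spread within either, the *Epha2* points are apart by a smaller gap, and most other probes overlap.

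*Epha4*, a receptor that binds ephrins of both classes, showed the clearest difference of the family. Its probe A_55_P2023762 is a 60-base sequence that the array annotation places at chr1:77364339-77364398 on the minus strand (the build is not given in the files). Of the 12 member probes, 3 had listed coordinates inside their gene on the GRCm38 mouse genome build, and *Epha4* was not among them. Coordinates given here are therefore not to be read on that build. The *Epha4* probe is shown by its first 30 bases because it carries the called difference, and its longest run of alternating T and G has 4 bases.

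Epha4 A_55_P2023762: caggctctgaggtttttattttttggcgat

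The probe read 8.96, 9.54 and 9.76 on 1G11-mock replicates 1, 2 and 3 and 7.54, 7.64 and 7.79 on 1G11-SOD3 replicates 1, 2 and 3. Each 1G11-mock array was thus above each 1G11-SOD3 array. The means were 9.42 ± 0.413 and 7.65 ± 0.127 (SD, n = 3 each), a log2 difference of -1.76 (SE 0.255, 95% interval -2.32 to -1.20, adjusted p = 0.0038 in limma). This corresponds to a level 3.40-fold higher in 1G11-mock cells. Since only 1 of 3 1G11-SOD3 arrays measured the spot well above background, the size of the difference depends on values close to background there.

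The mean spot intensities as scanned, before any normalization, show the same order. They were 605, 772 and 905 on the 1G11-mock arrays over local backgrounds of 74, 89 and 108, and 314, 293 and 386 on the 1G11-SOD3 arrays over 77, 56 and 89.5. The spot (row 355, column 78) lies outside the middle, and the 114 detected spots around it (within 12 rows and 6 columns, and well above background on at least 3 arrays) had a median log2 difference of -0.24. With the position adjustment the *Epha4* difference was -1.40 (adjusted p = 0.0105), still called, where 0.814% of entries outside the middle were called lower and 1.07% higher. It was called in each of the 18 other settings that were run. With all 6 arrays it ranged from -2.93 with the scanner software's processed signal to -1.33 without background correction, and with 1 array left out from -2.01 to -1.65 (adjusted p between 0.00188 and 0.0276).

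**Figure D2:**
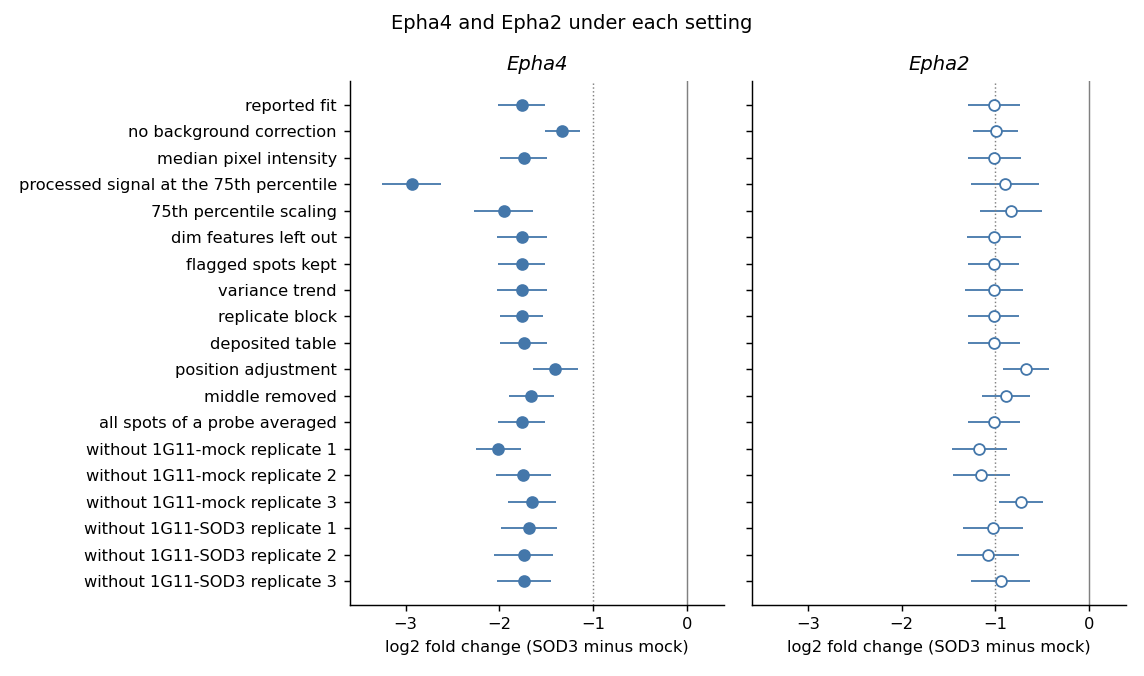
Log2 difference (x axis, 1G11-SOD3 minus 1G11-mock, with standard error) of *Epha4* (left) and *Epha2* (right) in the reported fit and in 18 other settings (y axis), filled where called. *Epha4* is called throughout and lies beyond 2-fold (dotted line), whereas *Epha2* lies near the dotted line and is not called in any setting.

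Features whose values over the 6 arrays ran most like those of *Epha4*, among 15177 that were well above background on all arrays outside the middle, were *Ermap* (Pearson r = 0.998, log2 difference -0.45), *Bckdha*, a subunit of the branched-chain ketoacid dehydrogenase (r = 0.998, log2 difference -1.22, adjusted p = 0.0135), and the unnamed probe A_55_P2134566 (r = 0.997, log2 difference -0.18). These are descriptions over 6 arrays that share the split into 2 lines, and the sizes of the differences varied among them.

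*Epha2*, the main receptor of ephrin-A1 in vessels, came next. Its probe read 13.23, 13.27 and 14.12 on the 1G11-mock arrays and 12.55, 12.66 and 12.36 on the 1G11-SOD3 arrays. The arrays of the 2 lines did not overlap, and 1G11-mock replicate 3 stood above the other two. The means were 13.54 ± 0.50 and 12.53 ± 0.156, a log2 difference of -1.01 (SE 0.274, 95% interval -1.62 to -0.41). This did not pass the threshold (adjusted p = 0.0798). The difference was -0.67 (adjusted p = 0.154) after position adjustment and -0.72 without 1G11-mock replicate 3, and detected spots around this one had a median of -0.30. Across the 18 other settings the adjusted p ran from 0.056 to 0.215, so the probe was not called in any of them.

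The class A ligands were both detected on every array. *Efna5* read 12.84, 12.69 and 12.78 on the 1G11-mock arrays and 11.62, 12.36 and 12.45 on the 1G11-SOD3 arrays. The lines did not overlap, and 1G11-SOD3 replicate 1 was the lowest by a wide gap. The log2 difference of -0.62 (95% interval -1.19 to -0.05) did not pass after adjustment (adjusted p = 0.296), and it was -0.31 after position adjustment and -0.36 without that replicate. *Efna1*, the ephrin known to be induced by tumor necrosis factor in endothelium, read 11.73, 11.18 and 11.18 against 11.37, 10.89 and 10.26. Here the lines overlapped, and the log2 difference of -0.53 (95% interval -1.19 to 0.13, adjusted p = 0.473) lay close to the median of -0.60 of the 88 detected spots around it. After position adjustment it was 0.10, and without 1G11-SOD3 replicate 3, the lowest array, it was -0.24.

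The arterial and venous pair was detected in both lines. *Efnb2* has 2 probes on the array that read differently, so the first 30 bases of both are shown with their places.

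Efnb2 A_52_P340073: gtcatcggttggctacgttttggttctatg

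Efnb2 A_55_P2138781: tggatctggacagttttgtagtctgtagct

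The array annotation puts A_52_P340073 at chr8:8618177-8618236 and A_55_P2138781 at chr8:8620426-8620485, both on the minus strand, and at positions 3521 and 1272 of the transcript they were designed on. The probe A_52_P340073 was well above background on all 6 arrays and read 11.34, 11.21 and 11.50 in 1G11-mock and 11.75, 11.16 and 11.19 in 1G11-SOD3 cells. These overlapped, with a log2 difference of 0.02 (95% interval -0.51 to 0.55, adjusted p = 0.982). The probe A_55_P2138781 was well above background on 0 of 6 arrays, with means of 7.31 and 7.43, so its fitted difference is not read as a fold change. A change of *Efnb2* of 2-fold in either direction thus lay outside the interval of the detected probe.

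*Ephb4*, the receptor that marks veins, has 2 probes that were well above background on all arrays. They are shown for the same reason, lying at positions 4256 and 3284 of their transcript (chr5:137815646-137815705 and chr5:137813703-137813762, plus strand).

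Ephb4 A_55_P2058718: gtcaacagaggcagacaacggtgcttggaa

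Ephb4 A_66_P130777: atacgaggaaagttttgcagcggctggatt

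The probe A_55_P2058718 read 11.88, 11.67 and 10.86 in 1G11-mock and 11.95, 11.86 and 11.28 in 1G11-SOD3 cells (log2 difference 0.23, 95% interval -0.44 to 0.90, adjusted p = 0.793). Replicate 3 was the lowest in both lines. The probe A_66_P130777 read 9.47, 10.15 and 9.90 against 9.72, 9.56 and 9.08 (log2 difference -0.38, 95% interval -0.96 to 0.20, adjusted p = 0.569). The 2 probes had differences of opposite sign, the lines overlapped on both, and neither interval reached 2-fold.

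*Ephb2*, an EphB receptor that binds all class B ephrins, read 8.75, 9.14 and 9.12 on the 1G11-mock arrays and 9.15, 8.70 and 9.09 on the 1G11-SOD3 arrays. The values were interleaved, with a log2 difference of -0.02 (95% interval -0.54 to 0.49, adjusted p = 0.979). *Efnb3*, a ligand best known from the midline of the nervous system, read 6.53, 7.55 and 7.89 against 7.72, 7.62 and 7.91. Only the highest of these, on 1G11-SOD3 replicate 3, was well above background, so the fitted difference is not read as a fold change.

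**Figure D3:**
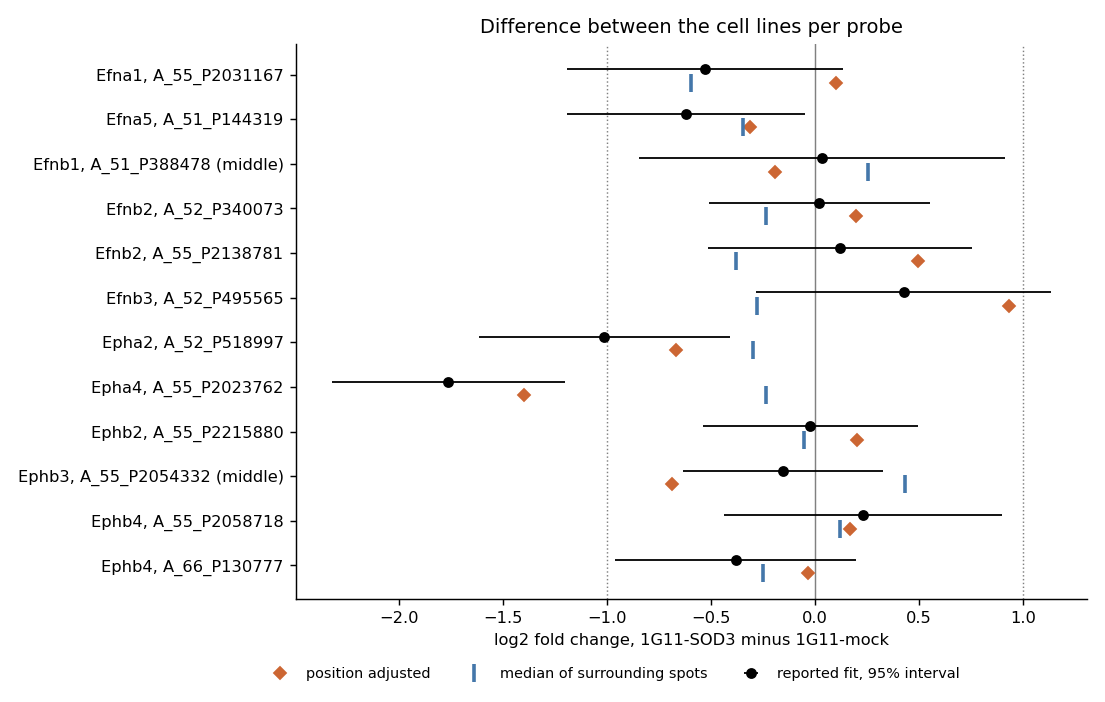
Log2 difference (x axis) of each of the 12 probes (y axis) in the reported fit (black, with its 95% interval), after position adjustment (orange diamonds) and, for comparison, the median of the detected spots around each probe (blue bars). Dotted lines mark 2-fold. The values of *Efnb3* and *Efnb2* A_55_P2138781 rest on signal near background. The interval of *Epha4* alone lies wholly beyond 2-fold, and for *Efna1*, *Efnb1* and *Ephb2* the position adjustment turns the sign of a difference whose interval includes 0.

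The 2 spots in the middle were bright on all arrays. *Efnb1*, a class B ligand, read 13.81, 13.89 and 12.23 on the 1G11-mock arrays and 13.26, 13.73 and 13.05 on the 1G11-SOD3 arrays. The lowest value was that of 1G11-mock replicate 3, the array on which middle copies of other probes also read lowest. The log2 difference was 0.03 (95% interval -0.85 to 0.91, adjusted p = 0.982), or -0.19 after position adjustment. The 128 detected spots around it had a median difference of 0.25.

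*Ephb3*, another EphB receptor, read 13.70, 14.07 and 13.99 in 1G11-mock and 13.86, 13.74 and 13.70 in 1G11-SOD3 cells. Unlike *Efnb1*, this spot was not low on 1G11-mock replicate 3. The log2 difference was -0.15 (95% interval -0.64 to 0.33, adjusted p = 0.807), and -0.69 (adjusted p = 0.107) after position adjustment. The 112 detected spots around it had a median of 0.43. Its only probe, at chr16:21223165-21223224 on the plus strand, differs from the other members' probes in sequence. It holds an unbroken run of 32 bases of alternating T and G, and the last 30 bases of the probe are shown with the repeat in capitals. A run of 20 bases also occurs in 1 of the 3 probes for *Epha5*, a receptor outside the 10, and its last 30 bases are shown for comparison.

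Ephb3 A_55_P2054332: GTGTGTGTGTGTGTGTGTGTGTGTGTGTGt

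Epha5 A_55_P2062911: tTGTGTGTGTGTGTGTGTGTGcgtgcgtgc

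Probes with such repeats were nearly all bright, whichever gene they were designed for. All 49 probes of the array with an alternating TG run of at least 20 bases were well above background on all 6 arrays, against 29.3% of all 55681 probes. The share was 89.7% of 39 probes with a run of 14 to 18 bases, 56.8% of 88 with 10 to 12 and 29.0% of those with 4 or fewer. Runs of CA, which pair with TG, showed 95.5% of 22 probes from 20 bases on. For *Epha5*, the probe with the run was well above background on all 6 arrays, and the other 2 *Epha5* probes, A_55_P2062921 and A_55_P2100425, on none. Whether the *Ephb3* signal comes from *Ephb3* RNA was not tested, and no other probe for the gene was among those analysed.

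**Figure D4:**
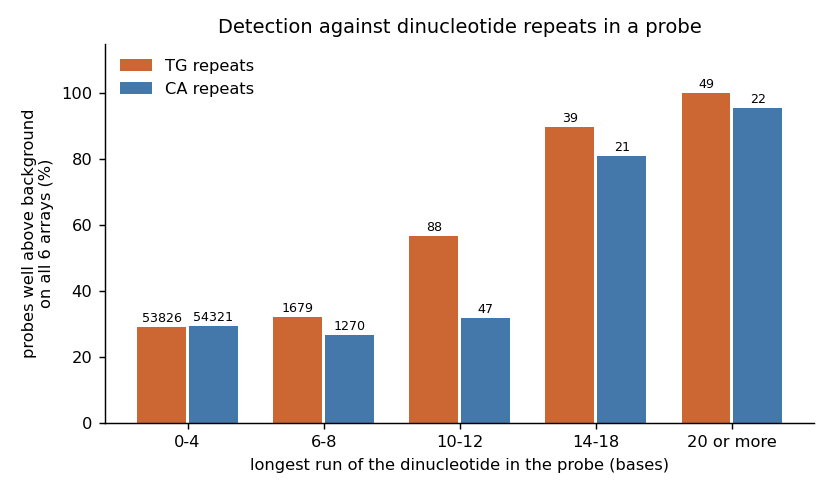
Share of probes well above background on all 6 arrays (y axis, percent) by the longest run of alternating TG (orange) or CA (blue) in the probe (x axis, bases), with the number of probes above each bar. The share climbs from 29.0% in probes with TG runs of up to 4 bases to 100% in the 49 probes with at least 20, the class that holds the *Ephb3* probe.

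The other 12 genes of the family, taken as a list, had 19 probes. By their brightest probe outside the middle, 6 were well above background on all arrays of at least 1 line and the other 6 on none, and 0 were called in either direction. The detected ones were the ligands *Efna2* (detected on 0 of 3 arrays of the mock line and 3 of 3 of the SOD3 line, fitted log2 difference 0.47, adjusted p = 0.391), *Efna3* (-0.14) and *Efna4* (-0.21) and the receptors *Epha5* (-0.30, the probe with the TG run), *Epha7* (0.18) and *Ephb6* (-0.41, a receptor without kinase activity). After position adjustment the fitted difference of *Efna2* was 0.93 (adjusted p = 0.0371), which is under the p threshold but short of 2-fold, and that of *Efna4* was 0.07. The second *Ephb6* probe, in the middle, was well above background on none of the arrays. The median of the list was -0.06.

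Proteins that work with Eph receptors and ephrins inside the cell (adaptors, kinases of the Src and Abl families, exchange factors, phosphatases and the proteases that cut ephrins) formed a list of 40 genes, 38 of them with a probe outside the middle. Of these 38, 27 were well above background on all arrays of at least 1 line. None was called by the brightest probe (0 higher, 0 lower), where 1.20% of 20333 named genes were called higher and 1.92% lower. The list had a median of -0.12, beside -0.06 for all named genes. *Pak1*, a kinase downstream of Rac, has its only probe in the middle, where it was called higher (log2 difference 1.01, adjusted p = 0.0389) but not after position adjustment (0.27, adjusted p = 0.506).

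Arterial and venous markers other than the ephrin pair were taken as further lists. Of the 9 arterial genes with a probe outside the middle, 2 were well above background on all arrays of a line and 0 were called. Of the 4 venous genes, 2 were and 0 were called by the brightest probe. *Nrp2*, a neuropilin of veins and lymphatic vessels, was measured by 2 probes with different calls. Its brightest probe had a log2 difference of -0.70 (adjusted p = 0.333), and A_65_P15245 one of -1.28 (adjusted p = 0.0247), which was -0.90 and no longer called after position adjustment (adjusted p = 0.0571).

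Markers of cell types moved beside *Epha4*. Of the 20333 named genes with a probe outside the middle, 1.92% were called lower and 1.20% higher. Of the 11 endothelial genes with a probe there, 1 was called lower and 0 higher. This was *Vwf*, the von Willebrand factor stored in endothelial cells, which read 10.25, 10.07 and 10.16 on the 1G11-mock arrays and 8.74, 8.61 and 8.17 on the 1G11-SOD3 arrays (log2 difference -1.65, adjusted p = 0.00332). After position adjustment it was -1.34 and still called. *Eng*, a co-receptor for transforming growth factor beta, and the detected probe of *Kdr*, a receptor of vascular endothelial growth factor, had log2 differences of -1.05 (adjusted p = 0.0835) and -0.50 (adjusted p = 0.299). The arrays of the 2 lines did not overlap for either, but neither passed the threshold. The list's median was -0.03, or -0.77 over its 4 genes well above background on all arrays of either line, beside -0.06 and -0.12 for all named genes, with 5 of the 11 genes well above background on no array, and the mean log2 intensity over the 11 genes ran from 8.45 to 9.04 on the 1G11-mock and from 8.24 to 8.56 on the 1G11-SOD3 arrays. Of the 6 fibroblast and mural genes, 4 were called higher in 1G11-SOD3 cells, with and without the position adjustment. With the adjustment, 339 of the 20333 named genes were called higher and 242 lower. The median of the fibroblast and mural list was 1.83 without it. The mean log2 intensity over these 6 genes was 9.11 to 9.39 on the 1G11-mock and 10.703 to 10.956 on the 1G11-SOD3 arrays. *Col1a1*, a chain of type I collagen, had a log2 difference of 3.1 (adjusted p = 0.00151), *Acta2*, smooth muscle actin, of 2.62 (adjusted p = 0.00106) and *Pdgfrb*, the platelet-derived growth factor receptor of mural cells, of 2.39 (adjusted p = 0.000357). *Col1a2* was well above background on no 1G11-mock array and was at least 1.36-fold higher in 1G11-SOD3 cells (adjusted p = 0.0223). *Pdgfra* (0.27) and *Thy1* (-0.37) were not called there. The part of these marker genes in the *Epha4* difference was not tested, and fewer cells of a type cannot be told apart from less RNA per cell.

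Among markers of other cells, the leukocyte gene *Itgam* was well above background on all 6 arrays by 1 of its 3 probes (14.19 in both lines). Its other probes passed on none. *Ptprc*, *Cd68* and *Adgre1*, the rest of the leukocyte list, were well above background on no array. The epithelial gene *Cdh1* passed outside the middle on 0 of 3 arrays of 1G11-mock and 3 of 3 of 1G11-SOD3 cells. Its means there were 7.81 and 8.11 (fitted log2 difference 0.30, adjusted p = 0.607), close to the lowest values marked. Of the other epithelial genes outside the middle, *Krt5* and *Krt8* passed on 1 1G11-SOD3 array each, and *Epcam* and *Krt18* on none. Of the epithelial, leukocyte and neural lists, with 5, 4 and 3 genes outside the middle, 0 genes were called there. Those called lay in the middle, where *Krt14* was higher (log2 difference 4.82, or 2.18 and still called after position adjustment), as was *Tubb3* (1.73, or -0.73 and not called after position adjustment). The middle copies of *Acta2* and *Pdgfra* gave 3.91 and 1.49. After position adjustment these were 2.61, still called, and 0.58, not called.

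**Figure D5:**
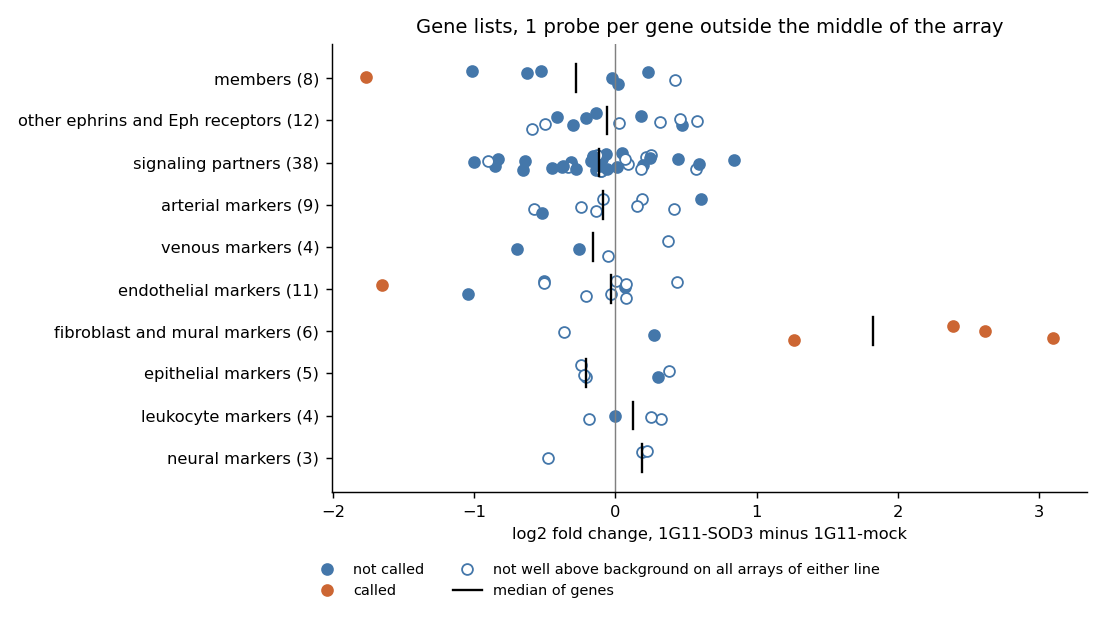
Log2 difference (x axis) of each gene of the lists (y axis, number of genes in parentheses) by its brightest probe outside the middle, orange where called, open where not well above background on all arrays of either line, with a black bar at the median of the list. Among the ephrins and Eph receptors only *Epha4* is called, the signaling partners have a median of -0.12, and 4 fibroblast and mural genes lie to the right.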

How the data were processed

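The authors deposited 6 scanner files (Agilent Feature Extraction 10.7.3.1) that hold the unnormalized intensity of each spot and its local background, and a log2 table (normexp, offset of 50, quantile normalized). Here, mean spot intensities were background corrected with normexp (offset of 50), log2 transformed and, without control spots, quantile normalized. Outlier spots were left out and copies of a probe averaged, those in the middle apart. The cell lines were compared with limma 3.58.1 (R 4.3.3) and Benjamini-Hochberg adjustment over 55961 entries. On simulated data with 200 changed entries, 200 were called and no others. The simulation had independent noise and no effect of place. Its changed entries were bright spots outside the middle, with a median fitted log2 change of 2.01 for those raised. It therefore does not measure false calls from place or slide row, or calls of smaller changes or near background. The position surface was a tensor smooth (mgcv 1.9.3). It lowered the SD of the difference among held-out copies of 198 probes from 0.652 to 0.21. Replicates with the same number shared a slide column, and their deviations from the line means correlated at 0.141, 0.144 and 0.235. The reported fit did not pair them, and a fit with the replicate number as a block was run as an alternative. Pairing by culture and by slide column cannot be told apart. Genes named are all members, detected family members, called list genes and up to 3 features most like a called member. Members and lists were chosen with earlier results of these data known. Alternatives covered background, pixel summary, scaling, filters, variance trend, position and each array left out. Figures used Python 3.11.15 and matplotlib 3.10.9. The number of arrays limits precision.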

Additional observations from a re-analysis of the deposited data

How the results depend on the processing

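The calls among the 10 probes outside the middle (1 lower, 0 higher) were the same in all 18 settings, and of 212 probe values recomputed 187 kept their sign and their side of the threshold. The other 25 changed sign, all with intervals that include 0 in the reported fit. Median pixel intensities gave -0.0071 for *Efnb1* and 0.0040 for *Ephb2*, and the deposited table gave -0.01 and 0.0033. The processed signal gave -0.51 for *Efnb1*, 0.12 for *Efna1*, 0.0895 for *Ephb2*, -0.40 for *Efnb2* A_55_P2138781 and 0.0345 for *Ephb4* A_66_P130777, with the median of all entries outside the middle at -0.49. The 75th percentile scaling, with that median at -0.35, gave 0.0179 for *Ephb3* and -0.32 for *Efnb2* A_55_P2138781. Position adjustment, with it at 0.10, gave -0.19 for *Efnb1*, 0.10 for *Efna1* and 0.20 for *Ephb2*, and removal of the middle 0.13 for *Ephb2*. With 1 array left out, values ran from -0.17 to 0.12 for *Efnb2* A_52_P340073, -0.0546 to 0.41 for *Efnb2* A_55_P2138781, -0.15 to 0.11 for *Ephb2*, -0.50 to 0.32 for *Efnb1* and -0.0754 to 0.44 for *Ephb4* A_55_P2058718. The cause of these changes was not tested. With the replicate block, *Epha4* stayed at -1.76 (adjusted p = 0.0019), 1 probe was called lower and 0 higher, and no other call changed. Signal near background limits *Epha4* in 1G11-SOD3 cells, *Efnb3* and the second *Efnb2* probe.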
